A study of Mus musculus with 4 samples.

Results

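The interferon-induced antiviral genes described here are 10 of the 17230 genes in the count table: Rsad2, Oas1a, Oas2, Oas3, Ifit1, Ifit3, Ifi27l2a, Irf7, Isg15 and Usp18. They were picked by name because earlier results had shown some of them far higher in Hes1-derived than in Fgfr3-derived libraries and others not, so the difference between these groups is a description of the genes and not a test of them. The 4 libraries are bulk RNA sequencing of stromal cells sorted from mouse femurs at postnatal day 21. Hes1-derived cells came from Cxcl12(GFP/+); Hes1(CreER/+); R26R(tdTomato/+) mice and are replicates 1 and 3. Fgfr3-derived cells came from Cxcl12(GFP/+); Fgfr3-iCreER; R26R(tdTomato/+) mice and are replicates 2 and 3. Both genotypes carry the Cxcl12 GFP allele and the tdTomato reporter, and all mice were given tamoxifen at embryonic day 12.5. The Cre is expressed under Hes1 or Fgfr3 control, so the permanent tdTomato mark reports which gene was active at the pulse, and in the Hes1-derived group the CreER sits in an allele of Hes1 itself. GFP marks CXCL12-abundant reticular (CAR) cells, marrow stromal cells that support blood stem cells. The labels give GFP and tdTomato together as the sort, while the extraction protocol names tdTomato alone. The labels do not say whether a library is 1 animal, a pool or part of 1 animal, so the p-values below measure only the spread between these libraries.

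Type I and type III interferons bind cell-surface receptors whose JAK kinases phosphorylate STAT proteins. These join IRF9 and bind the interferon-stimulated response element in the promoters of many target genes, among them those described here. The products act at different steps: OAS proteins sense double-stranded RNA and activate RNase L, IFIT proteins bind viral RNA ends and translation factors, viperin (the product of Rsad2) makes a chain-terminating nucleotide, and ISG15 is a ubiquitin-like protein attached to other proteins. IRF7 is the transcription factor that amplifies interferon production, and USP18 removes ISG15 and restrains receptor signalling. Many of these genes are also expressed at a low level in blood cells in the absence of infection.

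Total counts were 22745128 and 23625327 for the Hes1-derived libraries, against 26025607 and 26804832 for the Fgfr3-derived libraries. All 10 genes passed the filter on low counts. Marker genes of the sorted stroma were present in every library, with 13 of 13 detected and a summed level of 11469.7 and 7382 CPM (read counts scaled to a common library size) in Hes1-derived libraries, against 17249 and 11549 CPM in Fgfr3-derived libraries. Blood-cell markers were present too. Neutrophil markers summed to 25482 and 30188 CPM in Hes1-derived libraries, against 8377 and 20624 CPM in Fgfr3-derived libraries. That was above the stroma list in every library but Fgfr3-derived replicate 2. The 12 B cell markers summed to 2509.5 and 2347 CPM in Hes1-derived libraries, against 643 and 704.5 CPM in Fgfr3-derived libraries, and 11 of the 12 were higher at an adjusted p under 0.05 in edgeR's quasi-likelihood test. Of all tested genes 5.24% were higher at that threshold. In bulk RNA, fewer cells of a type and less RNA per cell cannot be told apart.

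Stretches of promoter are printed for the members in which the letters of the interferon-stimulated response element were found. The motif searched was GAAANNGAAA, the core of that element, with its other strand TTTCNNTTTC, in the 250 bases before and 50 bases after each start in RefSeq's table (build GRCm38.p6). A window was given for 7 members, and 6 of them held the motif, against 3.76% of 10101 tested genes with a window. The capitals mark the matches, with 20 bases on either side or fewer where the start was reached, read 5′ to 3′ along the gene's own strand.
Rsad2: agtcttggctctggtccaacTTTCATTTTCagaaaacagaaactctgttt
Oas1a: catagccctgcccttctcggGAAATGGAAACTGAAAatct
Oas3: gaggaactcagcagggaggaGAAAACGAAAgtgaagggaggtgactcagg
Isg15: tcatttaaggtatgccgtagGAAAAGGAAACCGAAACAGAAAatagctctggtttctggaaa
Ifit1: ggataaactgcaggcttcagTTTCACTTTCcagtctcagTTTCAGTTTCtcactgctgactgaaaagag
Ifit3: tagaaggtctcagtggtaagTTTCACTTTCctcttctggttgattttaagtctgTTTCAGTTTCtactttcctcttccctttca
The Rsad2 stretch is chr12:26456543-26456592 on the minus strand, the Oas1a stretch chr5:120907526-120907565 minus, and the Oas3 stretch chr5:120777705-120777754 minus. The Isg15 stretch is chr4:156200855-156200916 minus, the Ifit1 stretch chr19:34640765-34640833 plus, and the Ifit3 stretch chr19:34583353-34583436 plus. Rsad2 and Oas3 had 1 match each, starting 120 and 75 bases before the start. Ifit1 and Ifit3 had 2 separate matches each, all in the TTTC orientation, at 104 and 85 bases before the start of Ifit1 and at 156 and 122 before that of Ifit3. Oas1a had 2 overlapping matches and Isg15 had 3, of which neighbours overlap. The Irf7 window held no match of these letters. The motif was in 3 of 3 windows of members called higher in Hes1-derived libraries, and in 3 of 4 windows of members that were not called. Among the other interferon pathway genes it was in 8 of 18 windows of those called higher (44.4%) and in 30 of 84 of those tested and not called higher (35.7%). A match is a description of letters and does not show binding.

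Rsad2, on chromosome 12 (26442746-26456452, minus strand, GRCm38), had the most reads of the members in every library. Its level was 550.5 and 353.1 CPM in Hes1-derived replicates 1 and 3, against 65.7 and 53.9 CPM in Fgfr3-derived replicates 2 and 3. Both Hes1-derived libraries were at least 5.37-fold above the higher Fgfr3-derived library, and the fitted log2 fold change, Hes1-derived minus Fgfr3-derived here and throughout, was 2.92 ± 0.29 (SE). Among the 17230 genes it ranked 219th and 390th by CPM in the Hes1-derived libraries, against 3519th and 4311th in the Fgfr3-derived libraries. Rsad2 alone supplied 70.5% and 62.4% of all reads on the 10 genes in Hes1-derived libraries, against 33.5% and 42.1% in Fgfr3-derived libraries.

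Ifi27l2a, which encodes a small membrane protein of the IFI27 family and lies on the same chromosome (103442167-103443680, minus), had the widest difference of the 10. Its level was 15.0 and 22.7 CPM in Hes1-derived libraries, against 1.89 and 1.95 CPM in Fgfr3-derived libraries. The groups were apart by 7.72-fold at their nearest, and the log2 fold change was 3.29 ± 0.38. The Fgfr3-derived values rest on 48 and 51 reads. Reads of Ifi27l2a may be shared with its close copy Ifi27l2b, since the counting of reads that match more than 1 gene is not given in the sources used here.

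The 3 OAS members lie together within 177189 bases of chromosome 5, and each was higher in both Hes1-derived libraries than in either Fgfr3-derived library. Oas3 (120753098-120777661, minus) had 27.1 and 27.6 CPM in Hes1-derived libraries, against 4.06 and 5.47 CPM in Fgfr3-derived libraries, a log2 fold change of 2.52 ± 0.30. Oas2 (120730333-120749853, minus) had 6.29 and 8.34 CPM in Hes1-derived libraries, against 1.498 and 2.103 CPM in Fgfr3-derived libraries, a log2 fold change of 2.02 ± 0.45. Oas1a (120896256-120907521, minus) had 4.18 and 6.85 CPM in Hes1-derived libraries, against 0.986 and 1.57 CPM in Fgfr3-derived libraries, a log2 fold change of 2.11 ± 0.53. All 3 encode synthetases of the 2'-5' oligoadenylate messenger that activates RNase L, and their smallest values rest on few reads: 25 and 41 for Oas1a and 38 and 55 for Oas2 in the Fgfr3-derived libraries. Without Hes1-derived replicate 3 the log2 fold changes of Oas1a and Oas2 were 1.71 and 1.80, and without Fgfr3-derived replicate 2 they were 1.84 and 1.82, and neither gene was then called. Wherever a library is left out, the lone library of its group is assumed to vary as the other group does, since only that group has a spread. Oas1a belongs to a cluster of near-identical genes, and Oas2 overlaps Gm43068 on the other strand, so their reads may include those of other genes.

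Irf7, Isg15 and Usp18 were higher in both Hes1-derived libraries too, by a smaller margin. Irf7 (chromosome 7, 141262706-141266481, minus) had 77.3 and 71.3 CPM in Hes1-derived libraries, against 50.04 and 38.61 CPM in Fgfr3-derived libraries, a log2 fold change of 0.74 ± 0.22. Isg15 (chromosome 4, 156199424-156200818, minus) had 45.5 and 31.1 CPM in Hes1-derived libraries, against 21.6 and 14.2 CPM in Fgfr3-derived libraries, a log2 fold change of 1.10 ± 0.31. Usp18 (chromosome 6, 121245906-121270917, plus) had 23.8 and 23.3 CPM in Hes1-derived libraries, against 14.6 and 4.55 CPM in Fgfr3-derived libraries, a log2 fold change of 1.299 ± 0.51. The lowest Hes1-derived value was above the highest Fgfr3-derived value by 1.42-fold for Irf7, 1.44-fold for Isg15 and 1.59-fold for Usp18. Without Fgfr3-derived replicate 2 the log2 fold change of Usp18 was 2.39 and it was called, and without Fgfr3-derived replicate 3 it was 0.74. Irf7 and Usp18 overlap Phrf1 and Gm44148 on the other strand, and without a stated strand setting their reads cannot be told apart from those of these genes.

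Ifit1 and Ifit3, which lie within 66479 bases of each other on chromosome 19, had overlapping groups. Ifit1 (34640871-34650009, plus) had 25.2 and 17.9 CPM in Hes1-derived libraries, against 27.8 and 4.05 CPM in Fgfr3-derived libraries, a log2 fold change of 0.43 ± 0.73. Ifit3 (34583531-34588731, plus) had 6.51 and 3.67 CPM in Hes1-derived libraries, against 8.12 and 1.76 CPM in Fgfr3-derived libraries, a log2 fold change of 0.04 ± 0.70. For both genes the highest and the lowest library of the 4 were the 2 Fgfr3-derived libraries, with the Hes1-derived libraries between them. The sign for both turned on which Fgfr3-derived library was kept. Without Fgfr3-derived replicate 2 the log2 fold change was 2.42 for Ifit1, which was then called, and 1.54 for Ifit3, and without Fgfr3-derived replicate 3 it was -0.33 and -0.63. Ifit3 has the near-identical neighbour Ifit3b, so its reads are uncertain between them.

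**Figure D1:**
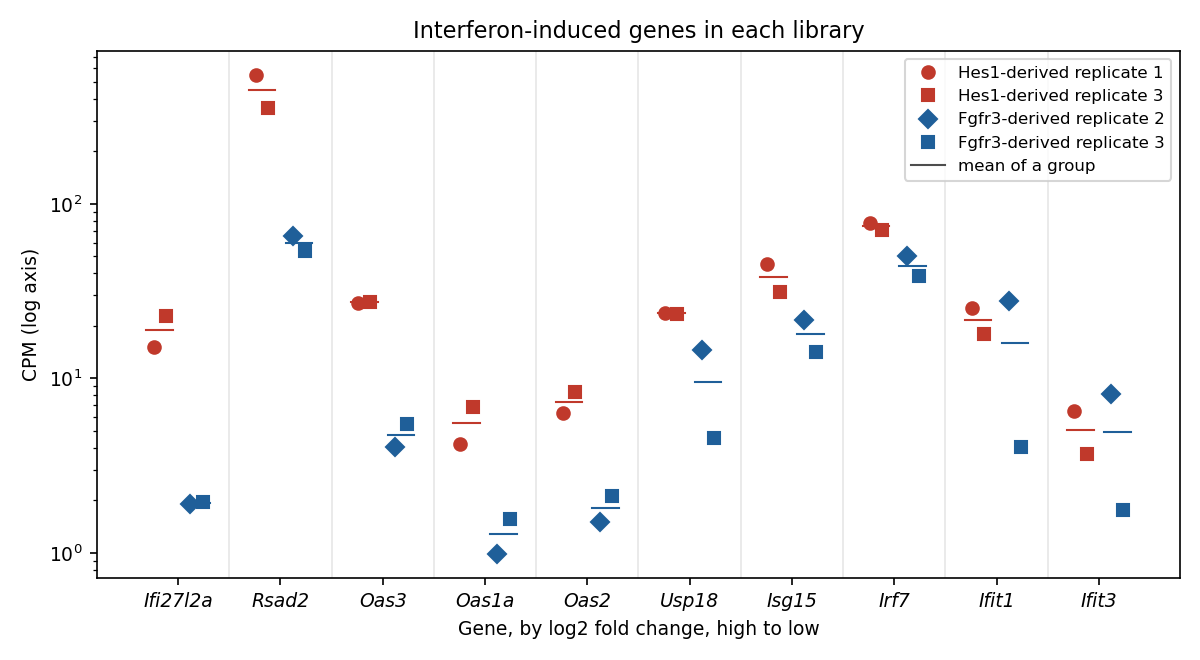
Level of each of the 10 genes in CPM on a log axis, with a point for each library, Hes1-derived in the left column of each gene and Fgfr3-derived in the right, and a short line at each group mean. The groups lie apart in 8 genes and overlap in Ifit1 and Ifit3, whose Fgfr3-derived points enclose the Hes1-derived points.

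Counted together, 5 of the 10 genes passed an adjusted p under 0.05 as higher in Hes1-derived libraries (Rsad2, Oas1a, Oas2, Oas3 and Ifi27l2a), 0 passed as lower and 5 did not pass. Of all 14330 tested genes, 5.24% passed as higher, 6.56% as lower and 11.8% in either direction. Of all calls 44.4% were thus higher, a share that was 89.0% with libraries scaled to the stroma list and 94.5% with scaling to eGFP reads, which moved the median of all genes to 0.59 and 0.83 in log2. Both Hes1-derived libraries were above both Fgfr3-derived libraries in 8 of the 10 genes, against 29.8% of all tested genes, and groups lay apart in either direction in 61.9%. The same contrast chose the members, so nothing is read from these shares. The threshold fell between Oas1a, just inside, and Isg15 and Irf7, just outside, whose groups also lay apart. The median log2 fold change of the 10 was 1.66, against -0.02 for all tested genes. On the authors' regularized log2 scale, which draws low counts together, the differences were 2.30 for Rsad2, 1.94 for Ifi27l2a, 1.69 for Oas3, 0.94 for Oas2, 0.85 for Oas1a, 1.02 for Usp18, 0.81 for Isg15, 0.59 for Irf7, 0.64 for Ifit1 and 0.14 for Ifit3, so Usp18 stood above Oas1a and Oas2 there.

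The members also differed in their spread between the Fgfr3-derived libraries. The choice of genes used the same libraries, and a wide spread within a group makes a call between groups less likely, so these ratios and ranks are a description and no independent support for the split. Ifit1 was 6.87-fold lower in Fgfr3-derived replicate 3 than in replicate 2, a log2 ratio of -2.78 with a 95% counting interval of -3.09 to -2.48. Ifit3 was 4.62-fold lower (-2.21, interval -2.70 to -1.74) and Usp18 3.21-fold lower (-1.68, interval -1.99 to -1.38). The size of these ratios was larger than that of 99.3%, 98.4% and 96.8% of all tested genes. It was larger than that of 99.7%, 98.2% and 98.7% of the genes within 2-fold of the same mean level. In these ranks the ratios of the tested genes have 0.1 CPM added to each value, and those of the members do not. The addition shrinks ratios at low levels, which can raise the ranks. The intervals cover counting error only.

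In the reported scaling the other 7 members differed less between the Fgfr3-derived libraries. Isg15, Irf7 and Rsad2 had log2 ratios of -0.60, -0.37 and -0.29, Ifi27l2a had 0.04, and Oas3, Oas2 and Oas1a had 0.43, 0.49 and 0.67. Between the Hes1-derived libraries the ratios of replicate 3 to replicate 1 ran from -0.83 for Ifit3 to 0.71 for Oas1a, and were -0.50 for Ifit1 and -0.04 for Usp18. Rsad2 was 1.56-fold lower in Hes1-derived replicate 3 (interval of the log2 ratio -0.68 to -0.60), while Oas1a and Ifi27l2a were 1.64-fold and 1.51-fold higher there. These directions depend on the scaling: with libraries scaled to reads of the eGFP transgene, the ratio of the Hes1-derived libraries was 0.42 for Rsad2, 0.56 for Ifit1 and 0.23 for Ifit3. For the Fgfr3-derived libraries the ratios of Ifit1, Ifit3 and Usp18 were -2.06, -1.49 and -0.96 with libraries scaled to the stroma list, and -2.32, -1.75 and -1.22 with scaling to eGFP reads. With stroma-list scaling those of Oas1a, Oas2 and Oas3 were 1.39, 1.21 and 1.15, larger in size than that of Usp18. Ifi27l2a, Rsad2, Irf7 and Isg15 stood at 0.76, 0.43, 0.35 and 0.12 there. With eGFP scaling Oas1a, Oas2 and Oas3 had 1.125, 0.945 and 0.885, smaller in size than Usp18. Isg15, Irf7, Rsad2 and Ifi27l2a then ran from -0.149 to 0.499.

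**Figure D2:**
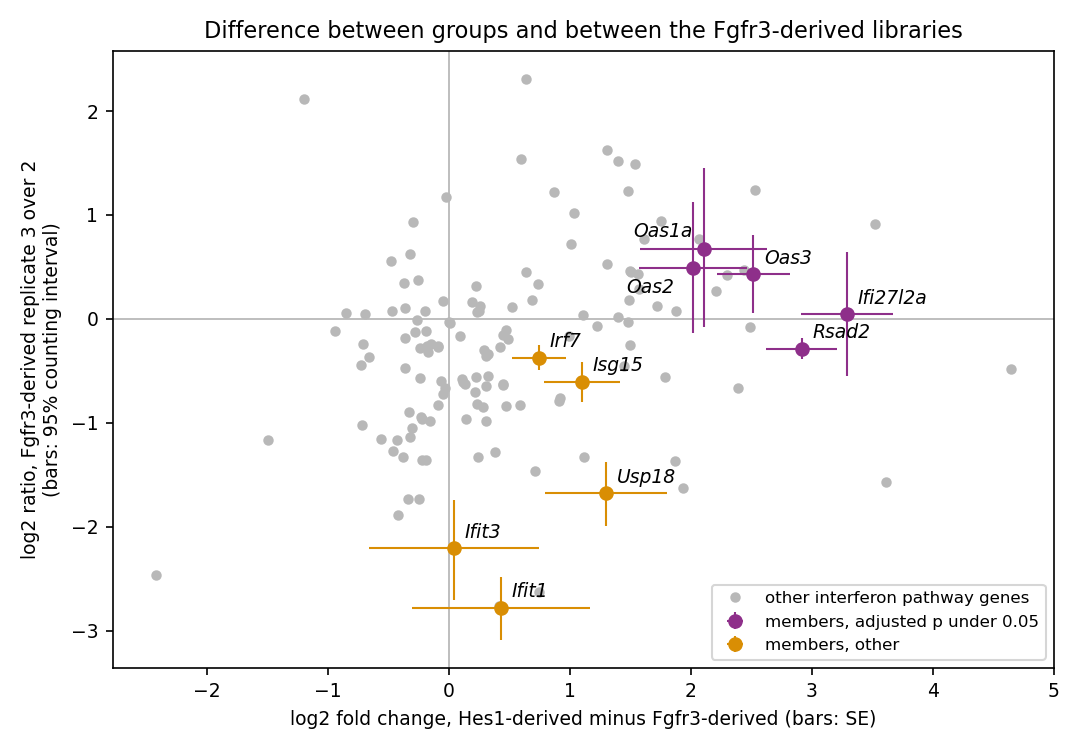
Log2 fold change between the groups on the x axis (bars are the SE), against the log2 ratio of Fgfr3-derived replicate 3 to replicate 2 on the y axis (bars are the 95% counting interval), for the 10 genes and, in grey, the other interferon pathway genes tested. Ifit1, Ifit3 and Usp18 lie lowest among the members, from -2.78 to -1.68, and the 5 called members lie between -0.29 and 0.67.

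Compared per length of exons (CPM per kilobase, GENCODE M21), the order of levels differed between the groups. In Hes1-derived libraries Rsad2 led with a mean of 104 CPM per kilobase, followed by Isg15 with 50.6, Ifi27l2a with 40.8 and Irf7 with 19.7. Usp18 with 8.44, Ifit1 with 8.11, Oas3 with 3.86, Oas1a with 2.93, Ifit3 with 2.92 and Oas2 with 1.64 came after them. Neighbours whose libraries overlapped in that order were Isg15 and Ifi27l2a, Usp18 and Ifit1, and Oas1a and Ifit3. In Fgfr3-derived libraries Isg15 led with 23.6 CPM per kilobase, then Rsad2 with 13.8, Irf7 with 11.7 and Ifit1 with 6.003. Ifi27l2a with 4.15, Usp18 with 3.43, Ifit3 with 2.83, Oas1a with 0.677, Oas3 with 0.674 and Oas2 with 0.405 followed. There the libraries of neighbours lay apart between Isg15 and Rsad2, between Ifit3 and Oas1a and between Oas3 and Oas2, and overlapped elsewhere.

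Levels of the members were set beside those of cell-type markers, since blood-cell markers moved with the groups. The profile over the 4 libraries was centred on its own mean (log2 of CPM plus 0.1), and the distance is the root mean square difference from the mean profile of a marker list. With 4 libraries in 2 groups such likeness is a description. Oas2, Oas3 and Oas1a lay nearest the B cell list, at 0.157, 0.194 and 0.252, and Ifi27l2a was nearest to it also but further off, at 0.596. Other lists lay not far off: Oas2 and Oas1a were 0.289 and 0.316 from the pan-leukocyte list and 0.335 and 0.35 from the T cell list. Oas3 was 0.353 from the erythroid list. Rsad2 lay 0.523 from both the B cell and the erythroid list. The erythroid list summed to 7619 and 3991 CPM in Hes1-derived libraries, against 828 and 1305 CPM in Fgfr3-derived libraries, with 5 of 6 tested markers higher. Like Rsad2 it was higher in replicate 1 than in replicate 3 of the Hes1-derived group. Between the Fgfr3-derived libraries the orders were opposite, with Rsad2 higher in replicate 2 and the erythroid list in replicate 3. Irf7 lay at about the same distance from several lists, 0.291 from the conventional dendritic cell list and 0.316 from both the plasmacytoid dendritic cell and the endothelial list. Isg15 did too, at 0.421 from the plasmacytoid dendritic cell list, 0.473 from the conventional dendritic cell list and 0.474 from the endothelial list. The part of these cells in the levels of the members was not tested.

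Ifit3, Ifit1 and Usp18 lay nearest the megakaryocyte list, at 0.0623, 0.349 and 0.649. Usp18 lay almost as near the conventional dendritic cell list, at 0.723. The 6 megakaryocyte markers summed to 61.0 and 34.5 CPM in Hes1-derived libraries, against 81.7 and 20.8 CPM in Fgfr3-derived libraries, and 4 of the 6 were at least 2-fold higher in Fgfr3-derived replicate 2 than in replicate 3. Pf4, the most abundant of these markers by the mean over the libraries, had 15.4 and 6.61 CPM in Hes1-derived libraries, against 25.2 and 3.10 CPM in Fgfr3-derived libraries. Itga2b, the next, had 10.6 and 9.51 CPM in Hes1-derived libraries, against 21.1 and 7.76 CPM in Fgfr3-derived libraries, and was above Pf4 in replicate 3 of each group. The stroma list also lay higher in Fgfr3-derived replicate 2, with 6 of 13 markers at least 2-fold above replicate 3. It was the second nearest list to Ifit3, at 0.706. Pan-leukocyte markers, 6 of 8 of them higher in Hes1-derived libraries, summed to 4622 and 5462 CPM there, against 1293 and 2718 CPM in Fgfr3-derived replicates 2 and 3, the opposite order between the Fgfr3-derived libraries. Whether any of these cells carried the Ifit1, Ifit3 and Usp18 transcripts was not tested.

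The summed markers of the other lists were as follows. Plasmacytoid dendritic cell markers summed to 806 and 671 CPM in Hes1-derived libraries, against 375 and 426.5 CPM in Fgfr3-derived libraries, with 3 of 8 tested higher. Monocyte and macrophage markers summed to 5419 and 7738 CPM in Hes1-derived libraries, against 1728 and 3704 CPM in Fgfr3-derived libraries, with 3 of 10 higher. Neutrophil markers, the blood-cell list with the highest sum in each library, summed to 25482 and 30188 CPM in Hes1-derived libraries, against 8377 and 20624 CPM in Fgfr3-derived libraries, with 1 of 9 higher. T cell markers summed to 55.5 and 60.2 CPM in Hes1-derived libraries, against 17.1 and 29.1 CPM in Fgfr3-derived libraries, and Cd3e and Cd3g were at 0 in Fgfr3-derived replicate 2. NK cell markers summed to 14.25 and 12.85 CPM in Hes1-derived libraries, against 9.46 and 19.3 CPM in Fgfr3-derived libraries, with 0 of 5 higher. Conventional dendritic cell markers summed to 36.3 and 44.8 CPM in Hes1-derived libraries, against 25.3 and 26.3 CPM in Fgfr3-derived libraries. Of these 0 of 5 tested were higher, and Clec9a was at 0 in 3 of the 4 libraries. Endothelial markers summed to 91.6 and 98.9 CPM in Hes1-derived libraries, against 32.7 and 45.5 CPM in Fgfr3-derived libraries, with 1 of 6 higher.

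**Figure D3:**
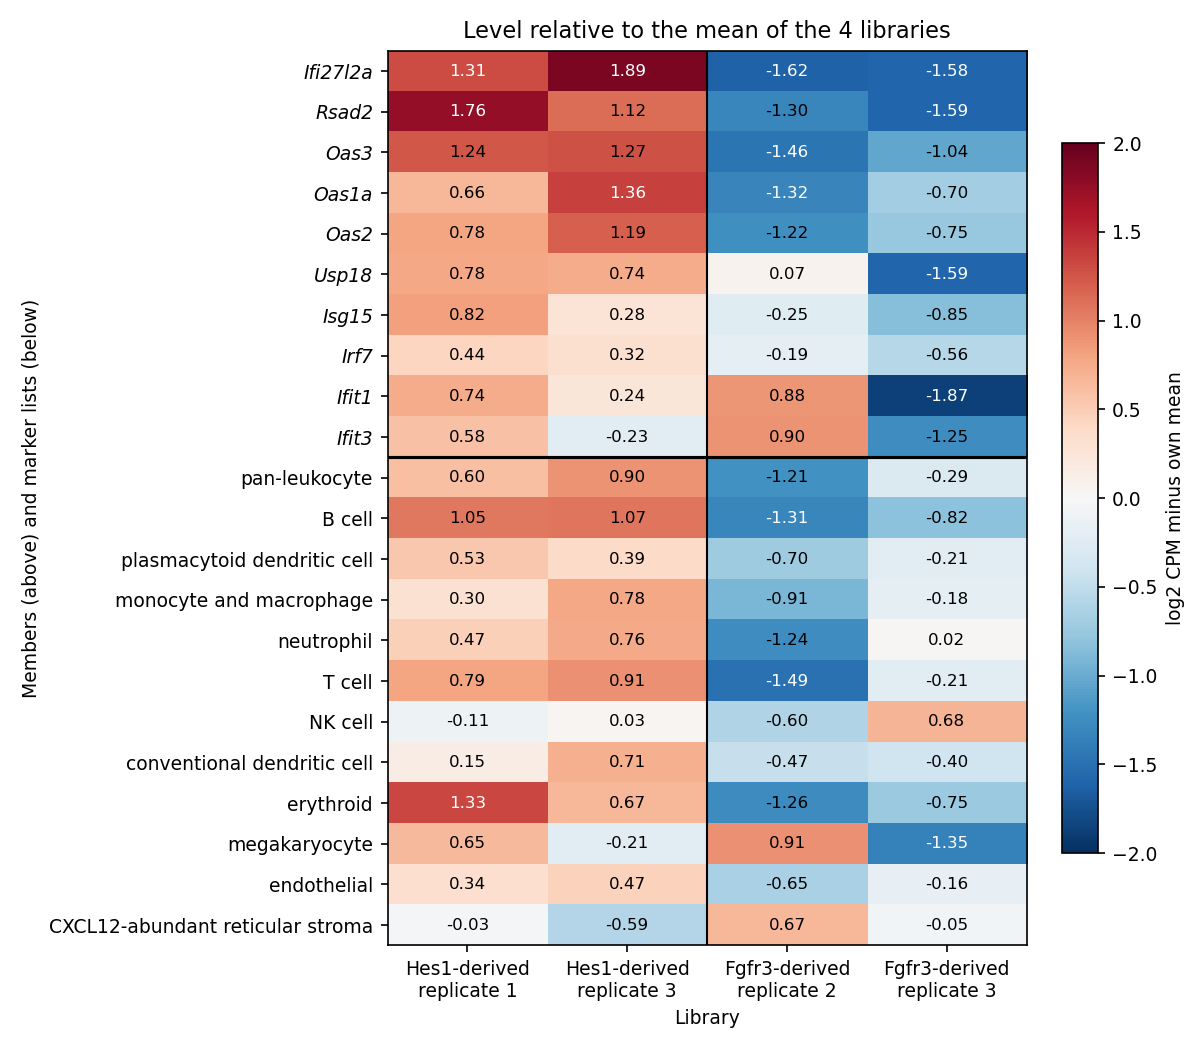
Log2 CPM in each library minus the mean over the 4 libraries, with the 10 genes above the line and the mean of each marker list below it, Hes1-derived columns on the left and Fgfr3-derived columns on the right. The OAS genes lie nearest the pattern of the B cell row, and 6 of the 10 genes (Ifit1, Ifit3, Usp18, Isg15, Irf7 and Rsad2) are lowest in Fgfr3-derived replicate 3, as is the megakaryocyte row.

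Among the 5 genes nearest Ifi27l2a, the member with the highest log2 fold change, were Lrtm2, Egfl6, Mfap5 and Cxcl3, at distances of 0.247 to 0.343 over the 4 libraries. Of these Egfl6 was the most abundant, at 14.7 and 13.4 CPM in Hes1-derived libraries, against 1.14 and 1.26 CPM in Fgfr3-derived libraries. Lrtm2, Mfap5 and Cxcl3 had at most 1.803 CPM in a Hes1-derived library and 0 to 0.0789 CPM in Fgfr3-derived libraries. Their distances thus rest in part on the added 0.1 CPM. The genes nearest Ifit3, whose log2 fold change was nearest 0, were Abi3bp, Fam110c, Pln, Ccl7 and Ppp2r3d, at 0.033 to 0.109. Abi3bp, which encodes an extracellular matrix protein, had 160 and 89.2 CPM in Hes1-derived libraries, against 188 and 44.8 CPM in Fgfr3-derived libraries. Ccl7, a monocyte-attracting chemokine, had 40.3 and 22.7 CPM in Hes1-derived libraries, against 50.9 and 13.3 CPM in Fgfr3-derived libraries.

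Beyond the 10 members, 135 other interferon pathway genes had a row and 132 were tested. Of these, 19 were higher in Hes1-derived libraries (14.4%) and 1 was lower, by edgeR's quasi-likelihood test with Benjamini-Hochberg adjustment over all tested genes, against 5.24% and 6.56% of all tested genes. Their median log2 fold change was 0.25. The lists were chosen with earlier results of these data known, so these shares are a description and no independent support. The count of 19 fell to 7 without Hes1-derived replicate 3 and to 10 without Fgfr3-derived replicate 2, and was 11 with scaling to eGFP reads.

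Of 20 type I and type III interferon genes listed, 1 had a row, Ifnz, with 0 and 2 reads in Hes1-derived libraries, against 1 and 2 reads in Fgfr3-derived libraries. Among 12 receptor and signal-transducer genes 0 were higher and 1 was lower. Ifngr2, a chain of the interferon-gamma receptor, had 185 and 163 CPM in Hes1-derived libraries, against 308 and 320 CPM in Fgfr3-derived libraries (log2 fold change -0.85 ± 0.21, edgeR quasi-likelihood adjusted p = 0.0423). This call was lost at -0.27 in log2 with scaling to the stroma list, at -0.03 with scaling to eGFP reads, and at -0.94 to -0.76 without any 1 of the 4 libraries. Stat2 and Irf9, which encode subunits of the factor that binds the response element, are given for their role, outside the naming rule. Stat2 had 73.6 and 61.6 CPM in Hes1-derived libraries, against 75.2 and 49.2 CPM in Fgfr3-derived libraries. Irf9 had 107 and 97.2 CPM in Hes1-derived libraries, against 68.9 and 39.8 CPM in Fgfr3-derived libraries, and neither passed (edgeR quasi-likelihood adjusted p = 0.806 for Stat2 and 0.0828 for Irf9).

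Among the 7 other interferon regulatory factors tested, 3 rose in Hes1-derived libraries, all of them factors used by blood cells. Irf4, needed in B cell and plasma cell development, had 58.0 and 60.0 CPM in Hes1-derived libraries, against 10.8 and 10.2 CPM in Fgfr3-derived libraries (log2 fold change 2.49 ± 0.23, edgeR quasi-likelihood adjusted p = 0.0130). Irf8, a myeloid and B cell factor, had 268 and 251.5 CPM in Hes1-derived libraries, against 77.4 and 106 CPM in Fgfr3-derived libraries (1.502 ± 0.23). Irf5 rose by 1.57 ± 0.22. With scaling to eGFP reads the calls of Irf5 and Irf8 were lost (edgeR quasi-likelihood adjusted p = 0.0591 and 0.0751), at higher log2 fold changes of 2.44 and 2.303. The B cell list above moved with them, and its part in their rise was not tested.

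Of 6 other OAS and RNase L genes, 1 rose, Oas1c, with 3.87 and 3.59 CPM in Hes1-derived libraries, against 0.631 and 0.879 CPM in Fgfr3-derived libraries (log2 fold change 2.30 ± 0.55, edgeR quasi-likelihood adjusted p = 0.0414), and the median of the 6 was 1.86. The call of Oas1c was lost without any 1 of the 4 libraries, at 2.10 to 2.60 in log2. Scaling to eGFP reads ended that call too, at 3.09 (edgeR quasi-likelihood adjusted p = 0.05009). Oasl2, the most abundant of the 6, is given outside the naming rule. It had 42.3 and 39.1 CPM in Hes1-derived libraries, against 62.8 and 32.15 CPM in Fgfr3-derived libraries (log2 fold change -0.22 ± 0.33). Of 5 other IFIT and IFI27 genes 0 passed and the median was 0.45. Ifit2, another IFIT gene, had 19.5 and 6.49 CPM in Hes1-derived libraries, against 11.6 and 7.49 CPM in Fgfr3-derived libraries. Ifi27l1, a relative of Ifi27l2a, had 111.5 and 83.1 CPM in Hes1-derived libraries, against 133 and 74.8 CPM in Fgfr3-derived libraries (log2 fold change -0.09 ± 0.31, and 0.57 or 0.75 with scaling to the stroma list or to eGFP reads). The difference between Ifi27l1 and Ifi27l2a was not tested. Ifit3b, given as the near-identical neighbour of Ifit3 and outside the naming rule, had 67 reads in Fgfr3-derived replicate 2 and 8 in replicate 3. Its log2 ratio of replicate 3 to replicate 2 was -2.76 with 0.1 CPM added to each value. The ratios given for the members have no such addition.

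Of the 4 enzymes that attach ISG15, 2 rose. Ube2l6, the ISG15-conjugating E2 enzyme, had 1299 and 753 CPM in Hes1-derived libraries, against 158 and 219 CPM in Fgfr3-derived libraries (log2 fold change 2.44 ± 0.35, edgeR quasi-likelihood adjusted p = 0.0164), a wider difference than that of Isg15 itself, which was not tested. Like Rsad2 and the erythroid list it had the higher CPM in Hes1-derived replicate 1. Between the Fgfr3-derived libraries it was higher in replicate 3, as the erythroid list was and Rsad2 was not. Trim25, a ligase of ISG15 and the only riser of 17 nucleic acid sensors and adaptors, had 74.5 and 82.8 CPM in Hes1-derived libraries, against 33.4 and 24.4 CPM in Fgfr3-derived libraries (1.44 ± 0.24). Its call was lost without Hes1-derived replicate 3, at 1.37, and with scaling to eGFP reads, at 2.36.

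Of 38 other antiviral effectors and interferon-induced genes 9 rose and 0 fell. Cmpk2, which lies 12751 bases from Rsad2 and makes the nucleotide that viperin uses, had 99.3 and 86.6 CPM in Hes1-derived libraries, against 31.0 and 35.1 CPM in Fgfr3-derived libraries (log2 fold change 1.49 ± 0.21, edgeR quasi-likelihood adjusted p = 0.0164). Apobec3, a cytidine deaminase that acts on retroviruses, rose by 1.11 ± 0.20, and Sp100, a nuclear body protein, by 1.498 ± 0.27. The other 6 called were Trim30a, Trim30d, Isg20, Zc3hav1, Phf11b and Epsti1. Of these Phf11b lost its call without any 1 of the 4 libraries, at 2.10 to 2.83, and Epsti1 without Hes1-derived replicate 1 (1.49), Hes1-derived replicate 3 (1.62) or Fgfr3-derived replicate 2 (1.37). Trim30a, Trim30d and Zc3hav1 lost theirs without Hes1-derived replicate 3 (1.27, 3.63 and 1.05) or Fgfr3-derived replicate 2 (1.52, 3.07 and 1.27), and Isg20 without Fgfr3-derived replicate 2 (1.75). With scaling to eGFP reads the calls of Cmpk2 (2.296, adjusted p = 0.0732 in edgeR's quasi-likelihood test), Apobec3, Sp100, Trim30a, Zc3hav1 and Epsti1 were lost at higher fold changes, and so was that of Apobec3 with scaling to the stroma list. Of 8 p200 family genes 3 rose, with Pyhin1 at 2.21 ± 0.29, Ifi203 at 1.88 ± 0.33 and Mndal at 1.496 ± 0.29. The log2 fold change was above 0 in 5 of the 8. The lowest, given outside the naming rule, was -1.499 for Ifi202b, which was not called. The call of Mndal was lost with scaling to eGFP reads, at 2.45 (edgeR quasi-likelihood adjusted p = 0.05085). Without Hes1-derived replicate 3 the calls of Apobec3 (1.12), Sp100 (1.21), Ifi203 (1.49) and Mndal (1.21) were lost, and without Fgfr3-derived replicate 2 those of the same 4 genes, at 1.11, 1.31, 1.86 and 1.65.

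Of 18 GTPases and chemokines tied more to interferon-gamma 0 were called in either direction, against 11.8% of all tested genes, and this list was not tested against others. Their median log2 fold change was 0.04, and 8 of the 18 (44.4%) were at least 2-fold higher in Fgfr3-derived replicate 2 than in replicate 3. The same held for 4 of the 8 p200 family genes, a larger share, and for 5.13% of all tested genes. Iigp1, an immunity-related GTPase, had 76.1 and 71.9 CPM in Hes1-derived libraries, against 135 and 40.5 CPM in Fgfr3-derived libraries (log2 fold change -0.24 ± 0.49, and 0.56 or 0.72 with scaling to the stroma list or to eGFP reads). Gbp7, a guanylate-binding protein, had 58.8 and 62.5 CPM in Hes1-derived libraries, against 72.8 and 37.4 CPM in Fgfr3-derived libraries. Both show the arrangement seen in Ifit1 and Ifit3, with the Fgfr3-derived libraries on either side of the Hes1-derived libraries. Of 12 MHC class I presentation genes 1 rose, H2-T23, by 0.99 ± 0.20, a call that held without Fgfr3-derived replicate 3 and was lost without Hes1-derived replicate 1 (0.97), Hes1-derived replicate 3 (1.01) or Fgfr3-derived replicate 2 (1.10). Both stroma-list scaling (1.61) and eGFP scaling (1.85) ended it too. Of 6 negative regulators 0 passed in the reported fit. Socs3, which inhibits JAK kinases, had 495 and 283 CPM in Hes1-derived libraries, against 777 and 716 CPM in Fgfr3-derived libraries (log2 fold change -0.94 ± 0.31), and was called in 2 of 13 alternatives, with DESeq2 and without Hes1-derived replicate 1 (-1.40). Ptpn6, a phosphatase of blood cells, had 546 and 518 CPM in Hes1-derived libraries, against 114 and 266.5 CPM in Fgfr3-derived libraries (log2 fold change 1.48 ± 0.39, edgeR quasi-likelihood adjusted p = 0.0512). It was called higher in 8 of the 13 alternatives: with library totals, scaling to the stroma list, both other filters, DESeq2, limma-voom and limma-trend, and without Fgfr3-derived replicate 3 (2.27).

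Across the pathway, 23 of the 132 other genes (17.4%) were at least 2-fold higher in Fgfr3-derived replicate 2 than in replicate 3, with 3 of the 10 members and 735 of all 14330 tested genes (5.13%). The opposite, at least 2-fold higher in replicate 3, held for 11 of the 132 (8.33%), for 0 of the 10 members and for 839 of all genes (5.85%). Of the 23, 0 were called between the groups, and of the 735, 2 were called higher and 26 lower. Of all tested genes 11.8% were called in either direction. A wide spread within a group makes a call between groups less likely, so nothing is read from these calls.

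**Figure D4:**
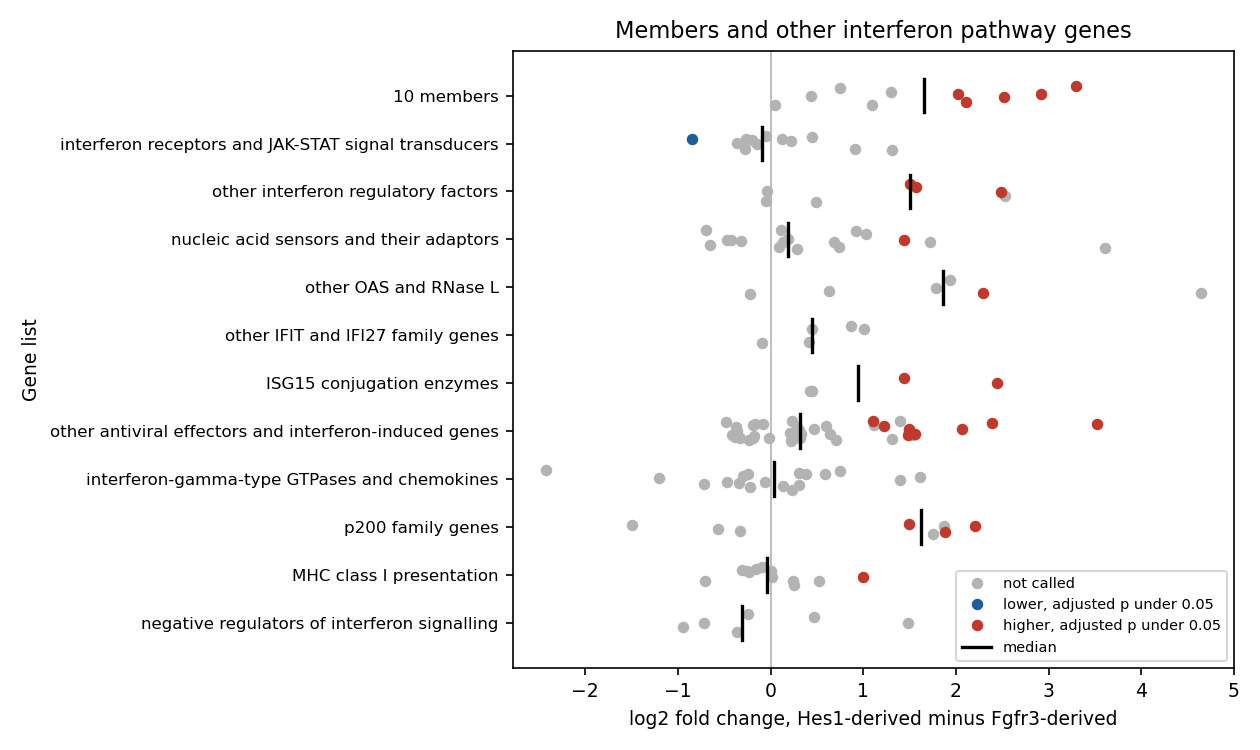
Log2 fold change, Hes1-derived minus Fgfr3-derived, of each tested gene of the interferon pathway lists, with a point per gene, coloured where the adjusted p is under 0.05, a bar at each list's median, and the 10 members in the top row. In the other OAS list 5 of 6 genes lie above 0 (median 1.86), and in the p200 list 5 of 8 (median 1.63, lowest -1.5). The interferon-gamma type GTPases and chemokines centre on 0.04.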

How the data were processed

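Bulk RNA of 4 libraries (2 Hes1-derived, 2 Fgfr3-derived) was sequenced after SMARTer amplification and Nextera XT library preparation, per the labels. The extraction protocol in the labels also names a 10X single-cell loading; each library is 1 column of counts and was treated as bulk. Build mm10 and the tools HTSeq, DESeq2, Cuffdiff, Cufflinks, Bowtie2 2.2.1, TopHat2 2.0.13 and FastQC appear in the submitters' processing notes, with no role or order. The annotation and strand setting are not given in the sources used here. The authors deposited whole read counts per gene. The authors' depth-normalized signal was, in each library, the deposited count times 1 constant, and their log2 values were deposited as regularized log2, a term taken from the name given to them.

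CPM here uses TMM factors. The groups were compared with edgeR 4.0.16 (R 4.3.3): quasi-likelihood F test, robust dispersions, minimum count 10, Benjamini-Hochberg adjustment over 14330 of 17230 genes, threshold 0.05. The filter kept at least 99.96% of reads, and the biological coefficient of variation was 27.8%. Counting intervals are 95% and cover counting error only. Members and lists were chosen with earlier results of these data known. The naming rule takes the 10 members, up to 3 genes per list and direction with the smallest p among those called (otherwise the 2 most abundant), the 2 most abundant of each marker list (of which Pf4 and Itga2b are printed beside Irf8), and the 5 genes nearest the members with the highest and the smallest change. Some genes are not reported here. Of 164 pathway entries 135 had a row. Gene positions and exon lengths are from GENCODE M21 (GRCm38). Alternatives were RLE, library-total, stroma-list and eGFP scaling, other filters, DESeq2 1.42.0, limma-voom, limma-trend (limma 3.58.1, log2 of deposited signal plus 1) and leaving out each library. The fit was tested on simulated data.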

Additional observations from a re-analysis of the deposited data

How the results depend on the processing

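Over 13 alternatives, Rsad2, Oas3 and Ifi27l2a were called in all 13 and Oas1a and Oas2 in 11, with log2 fold changes of 2.56 to 3.68, 2.34 to 3.34, 2.97 to 4.24, 1.71 to 3.03 and 1.80 to 2.90. Those of Irf7 (0.62 to 1.61), Isg15 (0.80 to 1.90) and Usp18 (0.74 to 2.39) stayed above 0, while Ifit1 ran from -0.33 to 2.42 and Ifit3 from -0.63 to 1.54. Ifit3 was also below 0, at -0.43, without Hes1-derived replicate 1. The number of members called was 5 in the reported fit, 6 with library totals (Isg15 added) and with scaling to the stroma list (Usp18 added), and 8 with DESeq2, which added Irf7, Isg15 and Usp18. Leaving out 1 library gave 3 to 5, with 3 without Hes1-derived replicate 3.

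Genes called higher numbered 751, against 324 with scaling to eGFP reads, 1411 with DESeq2 and 183 to 1225 when 1 library was left out. Genes called lower numbered 940, against 78 with scaling to the stroma list, 19 with scaling to eGFP reads, 1552 with DESeq2 and 181 to 998 when 1 library was left out. Higher and lower calls numbered 432 and 843 with Hes1-derived replicate 1 left out, and 243 and 181 with Hes1-derived replicate 3 left out. They numbered 183 and 301 with Fgfr3-derived replicate 2 left out, and 1225 and 998 with Fgfr3-derived replicate 3 left out. Other pathway genes called higher numbered 19, against 11 with scaling to eGFP reads, 30 with DESeq2 and 7 to 26 when 1 library was left out. Those called lower numbered 1, against 0 with scaling to the stroma list or eGFP reads, 3 with DESeq2 and 0 to 2 when 1 library was left out. Irf4, Ube2l6 and Pyhin1 were called under all 13 alternatives. The cause of these differences was not tested.

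Some uncalled genes turned sign. Ifit2 ran from -0.56 (without Hes1-derived replicate 1) to 1.03 when 1 library was left out. Ifi27l1 was at 0.57 with scaling to the stroma list, 0.75 with eGFP scaling, and -0.40 to 0.39 when 1 library was left out, above 0 without Hes1-derived replicate 3 (0.10) or Fgfr3-derived replicate 2 (0.39). Gbp7 was at -0.22 without Fgfr3-derived replicate 3. Iigp1 was at 0.56 with scaling to the stroma list, 0.72 with eGFP scaling, 0.0044 with limma-voom, 0.0271 with limma-trend, and -0.82 to 0.89 when 1 library was left out, the highest without Fgfr3-derived replicate 2.

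No paired analysis was possible because the groups share fewer than 2 replicate numbers. Few reads limit the precision of Oas1a, Oas2 and Ifi27l2a, which had 25 to 55 reads in the Fgfr3-derived libraries. Whether this bears on the lost calls was not tested.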
